A study of Homo sapiens with 6 samples.

Results

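Fibronectin and thrombospondin, the integrins and other receptors that bind them, and the talin and vinculin that tie integrins to actin were followed across 6 arrays of K562 cells. They are 9 genes, of 19775 genes with a probe set of their own, and they were represented by 39 of the 54613 probe sets tested. Every probe set that the platform annotation gave to 1 of these genes alone was kept: 7 each for FN1, THBS1, ITGB1 and CD47, 4 for ITGA4, 3 for TLN1, 2 for VCL and 1 each for ITGA5 and ITGAV. No probe set shared between a listed gene and another gene was found in the annotation. FN1, THBS1 and TLN1 were chosen from their differences between siRNA and scrambled RNA on these same arrays, so that comparison is described here with no test for any listed gene.

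K562 cells are an established human line grown from chronic myeloid leukaemia. In 3 independent experiments the cells were nucleofected with up to 200 nM of 1 siRNA, which the labels name RNAi8, or with scrambled RNA (scrRNA). All-trans retinoic acid (ATRA) was added 24 hours later in experiments 1 and 3, and the solvent DMSO in experiment 2. The groups were siRNA with ATRA (2 arrays), scrambled RNA with ATRA (2 arrays), siRNA with DMSO (1 array) and scrambled RNA with DMSO (1 array). The series concerns PRAME, a cancer-testis antigen that represses retinoic acid receptor signalling. All groups went through nucleofection, no untransfected cells were analysed here, and the DMSO groups are a single experiment. The time under ATRA is not given in the sources used here.

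Integrins are membrane receptors made of an alpha and a beta chain. The alpha5 chain (ITGA5) with the beta1 chain (ITGB1) is the classical fibronectin receptor, the alpha4 chain (ITGA4) pairs with beta1 to bind an alternatively spliced segment of fibronectin, and the alphaV chain (ITGAV) pairs with several beta chains to bind fibronectin and vitronectin. Thrombospondin 1, a matrix glycoprotein of platelet granules and many other cells, binds integrins and also CD47, the membrane protein that signals to phagocytes through SIRPA. Talin (TLN1) binds the cytoplasmic tails of beta chains and switches integrins to their active state, and vinculin (VCL) strengthens the link from talin to actin. K562 cells grow in suspension and are known for carrying the alpha5 beta1 receptor.

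Each value is log2 expression of 1 probe set on 1 array. A probe set is called bright where its mean over the arrays reached the median of all values (5.99) and dim where it did not. A dim signal was not shown to be above background, and differences of dim probe sets are differences in signal. Of the 39 probe sets, 22 were bright. Levels of different probe sets depend on the probes, so no order between genes is drawn from them. In a culture, fewer cells that carry a transcript and less of it per cell cannot be told apart.

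The promoters of FN1 and THBS1 are shown first, because these ligand genes had the widest siRNA differences among the listed genes. Each window runs from 250 bases before to 50 bases after a RefSeq transcript start of GRCh38.p14 and is written 5′ to 3′ on the gene's strand. FN1 lies at chr2:215436019-215436318 (minus strand) and THBS1 at chr15:39580829-39581128 (plus strand). Capitals mark matches to the motifs searched on both strands.
FN1: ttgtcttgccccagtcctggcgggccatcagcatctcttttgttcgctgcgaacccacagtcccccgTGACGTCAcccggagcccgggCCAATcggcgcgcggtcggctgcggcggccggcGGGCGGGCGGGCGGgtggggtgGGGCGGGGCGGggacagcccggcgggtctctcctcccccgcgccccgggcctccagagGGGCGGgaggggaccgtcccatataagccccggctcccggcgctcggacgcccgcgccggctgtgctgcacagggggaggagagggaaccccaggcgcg
THBS1: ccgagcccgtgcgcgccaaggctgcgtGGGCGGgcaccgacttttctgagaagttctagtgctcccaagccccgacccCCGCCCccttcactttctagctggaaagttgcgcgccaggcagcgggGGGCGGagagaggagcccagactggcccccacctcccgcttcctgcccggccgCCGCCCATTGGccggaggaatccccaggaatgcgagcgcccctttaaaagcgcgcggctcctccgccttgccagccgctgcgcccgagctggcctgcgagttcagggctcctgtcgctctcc

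The FN1 window held the palindromic cAMP response element TGACGTCA, which starts 183 bases before the transcript start. These letters were found in 1.85% of all 35116 promoter windows and in 1 of the 11 windows of the listed genes, since ITGAV and ITGB1 have 2 windows each. FN1 also held a CCAAT box (CCAAT) 162 bases before the start and 6 GC boxes (GGGCGG), of which those 129, 125 and 121 bases before the start overlap each other, as do those at 107 and 102. THBS1 held no TGACGTCA, 1 CCAAT box on the opposite strand 66 bases before the start and 4 GC boxes, of which the nearest ends where that CCAAT box begins. CCAAT was found in 34.6% of all windows and GGGCGG in 45%. The AP-1 site TGAGTCA (4.95% of all windows) was found for ITGA5 alone among the listed genes, and starts 6 bases before its transcript start. The nuclear receptor half-site AGGTCA (13.8% of all windows) was found in the CD47 window and in 1 of the 2 ITGAV windows, and the CArG box (1.29%) in none. A match is a description of these letters and does not show that a factor binds there.

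Experiment 3 stood apart from the others. Across probe sets, r between its arrays and those of experiments 1 and 2 was 0.979 to 0.982, against 0.996 or more between arrays of experiments 1 and 2. The actin 3′ control probe set was brighter than the 5′ one by 2.98 and 3.36 (log2) in experiment 3, compared with 0.63 to 0.92 elsewhere, and the GAPDH pair by 0.74 and 1.20, against 0.03 to 0.08. PRAME signal with the siRNA was 54.4%, 55.4% and 65.9% of that with scrambled RNA in experiments 1, 2 and 3. The erythroid markers of K562 were bright in 7 of 7 measured genes, among them GATA1 (8.86) and the zeta globin gene HBZ (12.03). The labels call the 3 experiments independent, but nothing says how the cultures were separated, so p-values measure the spread between these samples.

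Fibronectin transcript was higher with the siRNA in every experiment on the 4 brightest FN1 probe sets. On 216442_x_at it reached 9.20, 8.99 and 9.68 with the siRNA in experiments 1, 2 and 3, against 8.32, 8.57 and 8.81 with scrambled RNA. The siRNA arrays all lay above the scrambled arrays, although the gap in the DMSO experiment was the narrowest. The siRNA arrays averaged 9.29 ± 0.35 (SD, n = 3), the scrambled arrays 8.57 ± 0.25 (SD, n = 3), which is 1.65-fold. Within experiments the fold was 1.84 and 1.82 under ATRA and 1.33 under DMSO.

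The other 3 of these FN1 probe sets gave nearly the same pattern. On 211719_x_at the values were 8.86, 8.62 and 9.45 with the siRNA, against 7.99, 8.11 and 8.52 with scrambled RNA. On 212464_s_at they were 9.05, 8.75 and 9.49 with the siRNA, against 8.16, 8.27 and 8.60 with scrambled RNA. On 210495_x_at they were 9.07, 8.80 and 9.41 with the siRNA, against 8.25, 8.42 and 8.58 with scrambled RNA. Again no scrambled array reached the lowest siRNA array. After each probe set's mean was subtracted, these 3 lay 0.12 to 0.17 log2 units (Euclidean distance over the 6 arrays) from 216442_x_at, whose own distance from a flat profile was 1.07. Probe sets of 1 gene can share target sequence and are not replicates of each other. A suffix with x marks probes that may also bind other transcripts.

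The 3 remaining FN1 probe sets did not show this difference. The mean difference was 0.01 on 214701_s_at, a barely bright probe set with 6.12, 6.13 and 6.11 with the siRNA, against 6.00, 6.13 and 6.19 with scrambled RNA. On the dim 1558199_at and 214702_at it was 0.10 and 0.01. Which transcript forms of FN1 each probe set reads is not given in the sources used here.

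Thrombospondin 1 was read by 1 clearly bright probe set, 201110_s_at. It had 8.05, 8.17 and 5.40 with the siRNA in experiments 1, 2 and 3, against 7.04, 7.69 and 4.82 with scrambled RNA. The siRNA array was higher in each experiment, by 1.02, 0.48 and 0.58, but the groups overlapped because both arrays of experiment 3 fell below the dim limit. The siRNA arrays averaged 7.21 ± 1.57 (SD, n = 3), the scrambled arrays 6.52 ± 1.50 (SD, n = 3), while the 3 differences within experiments averaged 0.69 ± 0.28 (SD).

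Other THBS1 probe sets differed from 201110_s_at and from each other. On 201109_s_at, which was dim on average, the siRNA arrays had 6.22, 6.69 and 5.09, against 5.95, 6.26 and 5.31 on the scrambled arrays. Its difference was thus positive in experiments 1 and 2 (0.27 and 0.43) and negative in experiment 3 (-0.22). On the bright 201108_s_at the differences were -0.13, 0.04 and 0.07, and the mean differences of the 4 further dim probe sets ran from -0.15 to 0.10. Of the 39 probe sets, those with the 5 highest mean siRNA differences were the 4 FN1 probe sets and 201110_s_at. They took places 2 to 6 among all 54613, but both genes were chosen from this difference, so nothing is read from these places.

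**Figure D1:**
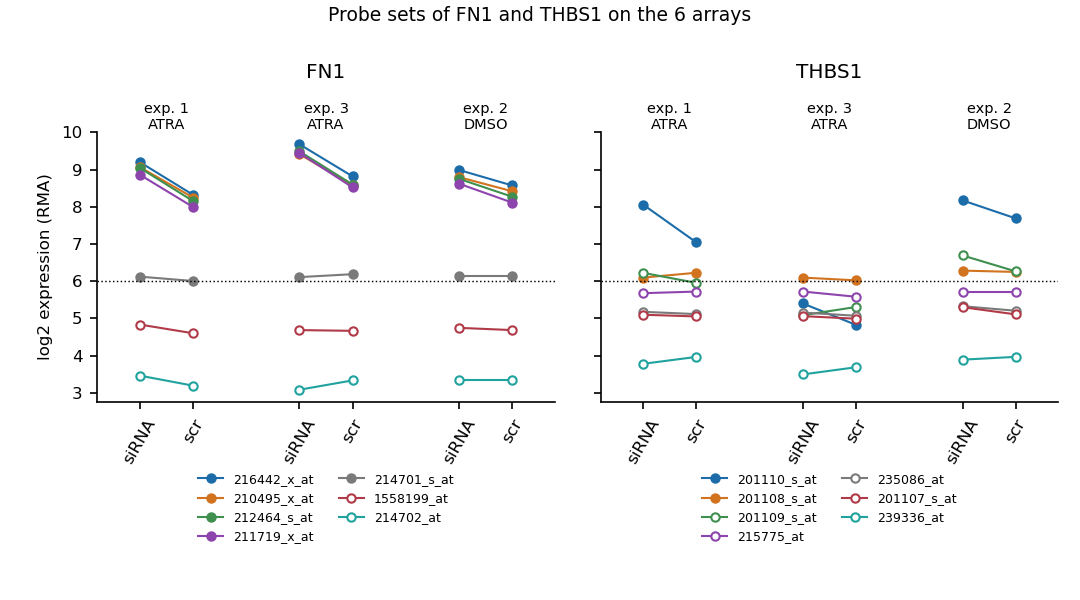
Log2 expression of each FN1 and THBS1 probe set on the 6 arrays, with the siRNA and scrambled array of an experiment joined by a line; filled points are bright probe sets, open points dim ones, and the dotted line is the median of all values (5.99). The 4 upper FN1 lines fall from siRNA to scrambled RNA in each experiment, and THBS1 201110_s_at lies at 5.40 and 4.82 in experiment 3.

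Among the receptors, the mean differences of the integrin probe sets between siRNA and scrambled RNA ran from 0.01 to 0.23. ITGA5 (201389_at) had 7.41, 7.39 and 7.36 with the siRNA, against 7.36, 7.33 and 7.40 with scrambled RNA, a mean difference of 0.02. The groups overlapped, and all 6 arrays lay within a narrow band. ITGAV (202351_at) had 9.48, 9.18 and 9.63 with the siRNA, against 9.35, 9.06 and 9.73 with scrambled RNA, so the sign turned in experiment 3 (0.13, 0.12 and -0.10). All 4 ITGA4 probe sets were dim, with means of 3.26 to 4.57 and mean differences of 0.01 to 0.20.

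The beta1 chain was slightly higher with the siRNA on each of its 3 bright probe sets in every experiment. On the brightest, 211945_s_at, the values were 11.68, 11.58 and 12.01 with the siRNA, against 11.58, 11.56 and 11.93 with scrambled RNA, a mean difference of 0.07. On 1553678_a_at the mean difference was 0.12, and on 1553530_a_at it was 0.23. On 1553530_a_at the siRNA arrays had 9.37, 9.26 and 9.11, against 9.22, 9.13 and 8.71 on the scrambled arrays, and the difference was widest in experiment 3 (0.15, 0.12 and 0.40). The groups overlapped on all 3. On the 4 dim ITGB1 probe sets the mean differences were 0.019 to 0.095.

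CD47 probe sets disagreed in sign. The bright 211075_s_at had 10.77, 10.73 and 10.74 with the siRNA, against 10.60, 10.63 and 10.56 with scrambled RNA, a mean difference of 0.15 with no overlap of the groups. The similarly bright 213857_s_at had 10.95, 10.74 and 11.03, against 10.83, 10.78 and 10.98, and overlapped (mean difference 0.04). On 242974_at, near the dim limit, the siRNA arrays were lower, with 6.03, 5.94 and 5.98, against 6.25, 6.03 and 6.36 on the scrambled arrays (mean difference -0.23). The other 3 bright CD47 probe sets differed by -0.07 to 0.13 on average.

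Talin transcript was lower with the siRNA on 2 of the 3 TLN1 probe sets. On 236132_at the values were 7.13, 6.75 and 6.91 with the siRNA, against 7.30, 7.17 and 7.16 with scrambled RNA, a mean difference of -0.28 ± 0.13 (SD, n = 3). On 203254_s_at they were 6.89, 6.89 and 6.83 with the siRNA, against 7.11, 7.02 and 6.97 with scrambled RNA, a mean difference of -0.16 ± 0.05 (SD, n = 3). In both, the siRNA arrays lay below all scrambled arrays. The third probe set, 232763_at, had 6.40, 6.19 and 6.21 with the siRNA, against 6.26, 6.20 and 6.19 with scrambled RNA, and its groups overlapped (mean difference 0.05).

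Vinculin was nearly level. The bright VCL probe set 200931_s_at had 11.21, 11.14 and 11.25 with the siRNA, against 11.23, 11.16 and 11.39 with scrambled RNA. The differences within experiments were -0.02, -0.02 and -0.14, and the groups overlapped. The dim 200930_s_at differed by -0.10 on average.

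Over all listed genes, 16 of the 39 probe sets were higher with the siRNA in all 3 experiments and 6 were lower, where 12.3% and 11.3% of all probe sets were. Every siRNA array lay above every scrambled array on 5 probe sets (all probe sets: 2.07%) and below on 3 (1.65%). These shares describe a choice of genes made on this comparison, and nothing is read from them. The median difference was 0.07 over the 39 probe sets and 0.01 over all. In limma with treatment as a covariate, no probe set of any gene passed an adjusted p of 0.05 (0%), and 657 had an unadjusted p below it. With the experiment as a block, which pairs the arrays, 1 passed, the PRAME probe set 204086_at (0.00183%), and 2878 had an unadjusted p below 0.05.

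**Figure D2:**
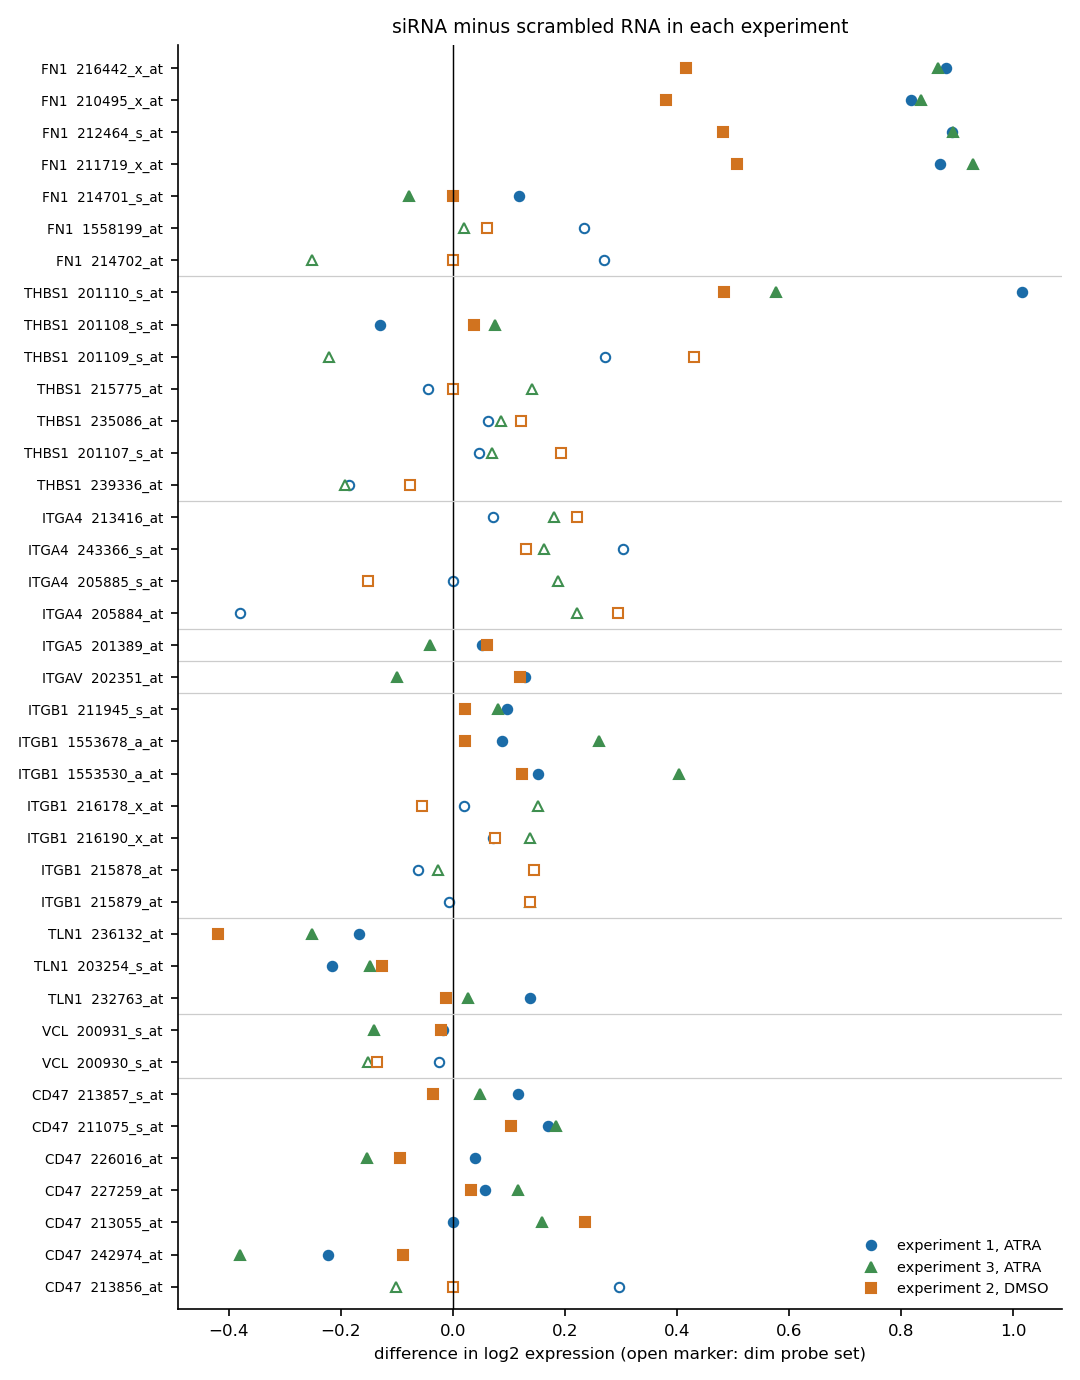
Difference in log2 expression between the siRNA and the scrambled array of each experiment, for all 39 probe sets grouped by gene; circles and triangles are the ATRA experiments, squares the DMSO experiment, and open markers dim probe sets. The 4 brightest FN1 probe sets and THBS1 201110_s_at have the 5 highest mean differences (0.68 to 0.77), and 2 TLN1 probe sets lie left of 0 in each experiment.

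Whether the siRNA difference itself depended on ATRA was asked next. FN1 on 216442_x_at differed by 0.88 and 0.87 between siRNA and scrambled RNA in the ATRA experiments and by 0.42 in the DMSO experiment. That leaves a difference of 0.46 between them, with a 95% interval of -0.95 to 1.86 (limma fit of 4 groups, adjusted p = 1). On 210495_x_at, 212464_s_at and 211719_x_at it was 0.39 to 0.45, and on the barely bright 214701_s_at 0.02. With the experiment as a block the interval for 216442_x_at was 0.17 to 0.75, and its adjusted p over all probe sets was again 1. THBS1 on 201110_s_at gave 0.31 with an interval of -6.02 to 6.64, which holds the distance between experiments 1 and 3. For TLN1 on 236132_at the difference was 0.21 (interval -0.49 to 0.91). With the experiment as a block, the interval was -0.20 to 0.82 for THBS1 201110_s_at and -0.13 to 0.55 for TLN1 236132_at. None of the 39 probe sets passed, and 0% of all did. An unadjusted p below 0.05 was found for 1531 of all probe sets with the block and 702 without it, and for 4 and 0 of the 39. Those 4 were the brightest FN1 probe sets, of a gene chosen from its siRNA differences on these arrays, so nothing is read from them.

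ATRA was compared with DMSO on experiment means, each taken over its siRNA array and its scrambled array. ITGAV was higher on all ATRA arrays. It had 9.48 and 9.35 in experiment 1 and 9.63 and 9.73 in experiment 3 (siRNA, then scrambled RNA, under ATRA), against 9.18 and 9.06 under DMSO. The difference was 0.43 ± 0.28 (SE, 2 ATRA experiments and 1 DMSO experiment), or 1.35-fold, with a 95% interval of -0.46 to 1.31, and it missed the test (limma, adjusted p = 0.995). Its size was 0.30 in experiment 1 and 0.56 in experiment 3.

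ITGB1, VCL and CD47 held the other probe sets on which all 4 ATRA arrays lay above both DMSO arrays. ITGB1 on 211945_s_at exceeded its DMSO mean (11.57) by 0.06 in experiment 1 and 0.40 in experiment 3. VCL on 200931_s_at exceeded its DMSO mean (11.15) by 0.08 and 0.17. For CD47 the 2 differences were 0.13 and 0.25 on 213857_s_at, 0.16 and 0.40 on 226016_at, and 0.13 and 0.28 on 213055_at. On 211075_s_at, the other very bright CD47 probe set, they were 0.01 and -0.03.

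THBS1 was the listed gene with lower values under ATRA. On 201110_s_at the ATRA arrays had 8.05 and 7.04 in experiment 1 and 5.40 and 4.82 in experiment 3, against 8.17 and 7.69 under DMSO. The ranges overlapped, since the siRNA array of experiment 1 exceeded the scrambled DMSO array. The difference was -1.60 ± 1.23 (SE), of which experiment 1 gave -0.38 and experiment 3 gave -2.82. On 201109_s_at the ATRA arrays had 6.22, 5.95, 5.09 and 5.31, against 6.69 and 6.26 under DMSO, with no overlap and a difference of -0.84 ± 0.46 (SE). Lower ATRA arrays without overlap were also found on the bright 201108_s_at (-0.16) and on the dim 235086_at (-0.14) and 201107_s_at (-0.15). The dim VCL probe set 200930_s_at (-0.31) was lower in this way as well. Of these 5 probe sets, 201109_s_at included, 1 was bright.

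The mean of the siRNA and scrambled arrays of FN1 hardly differed between ATRA and DMSO in experiment 1. On its 4 brightest probe sets experiment 1 differed from the DMSO experiment by -0.02 to 0.09, and experiment 3 by 0.39 to 0.62. The 2 arrays of experiment 1 went opposite ways on all 4. On 216442_x_at the siRNA array was higher than under DMSO (9.20 against 8.99) and the scrambled array lower (8.32 against 8.57). On experiment means the difference of 216442_x_at was 0.23 ± 0.34 (SE, interval -0.86 to 1.31, adjusted p = 0.995). ITGA5 stood at 0.03 (interval -0.56 to 0.61), and TLN1 between -0.01 and 0.16 on its 3 probe sets. Experiment 1 alone placed talin 236132_at 0.25 above DMSO.

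Of the 39 probe sets, 6 had all ATRA arrays above both DMSO arrays and 5 had them below, where 11.1% and 11.8% of all probe sets did. These counts are 15.4% and 12.8% of the listed probe sets, close to those shares, and probe sets of 1 gene are not independent. No probe set of any gene passed the test on experiment means (limma, 0%, 456 at an unadjusted p below 0.05, of them 1 of the 39, VCL 200930_s_at). When every array entered, with experiments as random blocks, 0.00366% passed, among them none of the 39. Without experiment 3, 9 of the 39 lay above and 6 below, where 19.5% and 19.8% of all probe sets did.

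**Figure D3:**
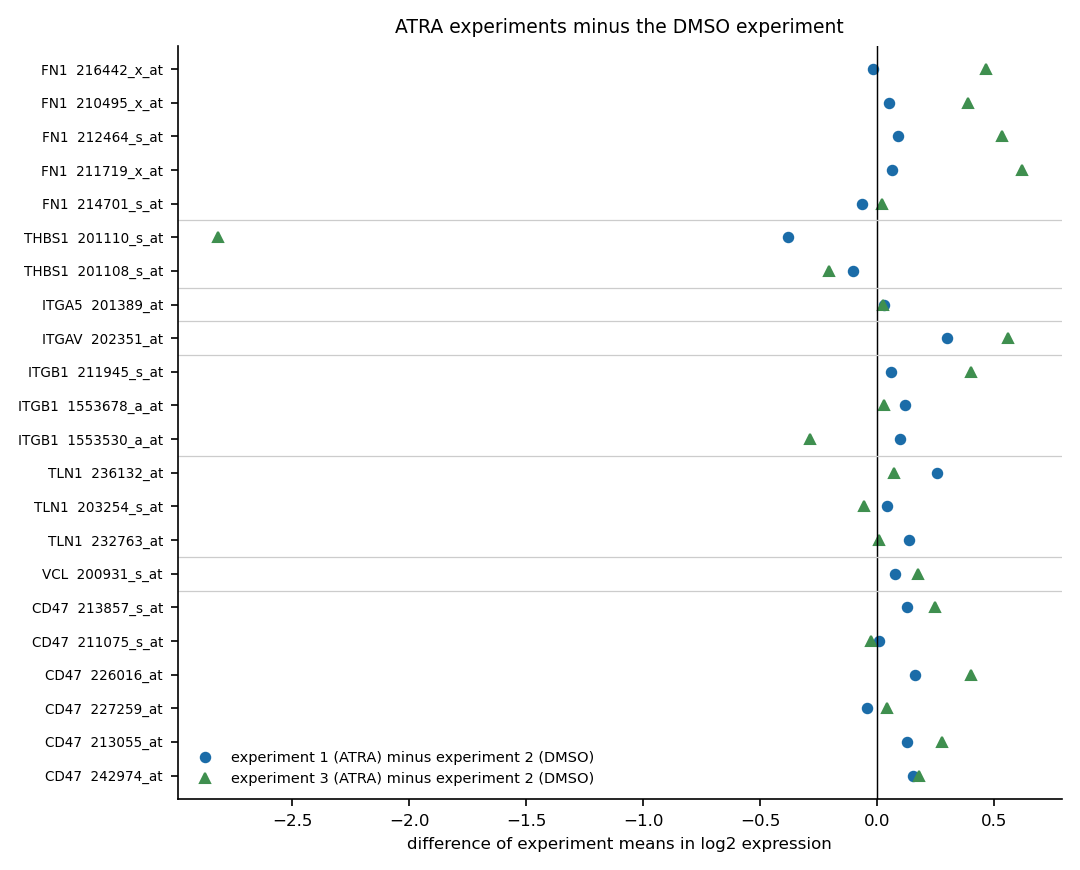
Difference in log2 expression between the mean of each ATRA experiment and the mean of the DMSO experiment for the 22 bright probe sets, with circles for experiment 1 and triangles for experiment 3. ITGAV lies at 0.30 and 0.56, while THBS1 201110_s_at lies at -0.38 in experiment 1 and -2.82 in experiment 3.

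**Figure D4:**
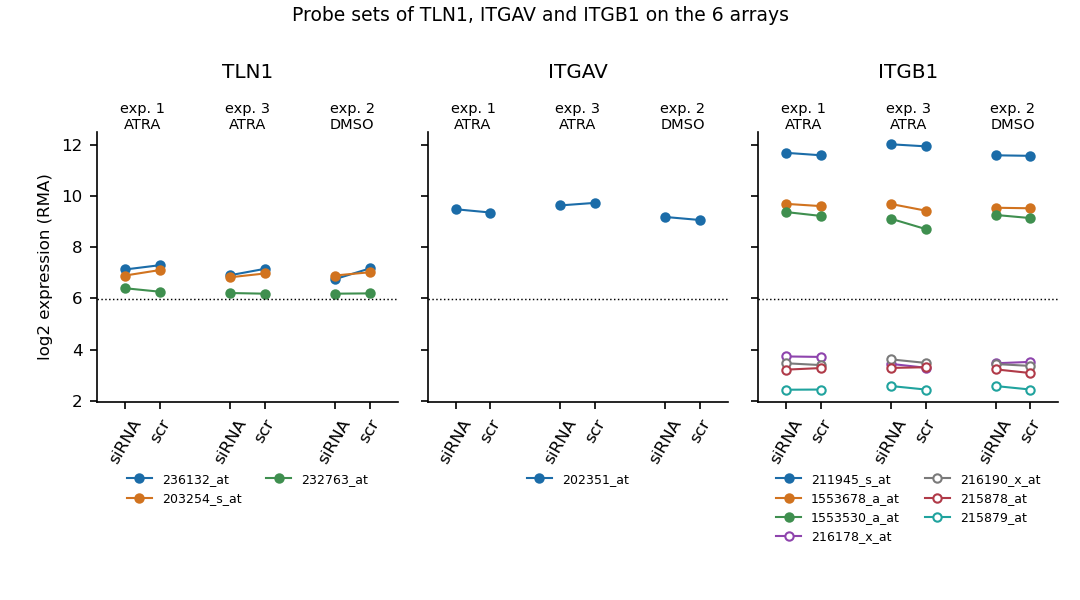
Log2 expression of each TLN1, ITGAV and ITGB1 probe set on the 6 arrays, drawn as for the ligands (dotted line at 5.99, open points dim). ITGAV is lowest in the DMSO experiment, and the bright ITGB1 probe sets 211945_s_at and 1553530_a_at move apart in experiment 3.

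The ATRA experiments, which share their labelled treatments, were then compared with each other to size the difference between experiments. THBS1 on 201110_s_at was lower in experiment 3 than in experiment 1, with a difference of -2.44 ± 0.13 (log2, SE), a 5.41-fold lower signal that was dim in experiment 3 (limma, adjusted p = 5.34e-06). Only 97 of all 54613 probe sets, itself included, lay as low. On 201109_s_at the difference was -0.89 (adjusted p = 0.002), whereas 201108_s_at differed by -0.10 (adjusted p = 0.499).

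Bright probe sets of other listed genes moved both ways. FN1 was higher in experiment 3 on 216442_x_at (0.49 ± 0.11 SE, adjusted p = 0.0119), 212464_s_at (0.44, adjusted p = 0.014) and 211719_x_at (0.56, adjusted p = 0.00399), and 210495_x_at missed the threshold (0.34, adjusted p = 0.0557). The dim ITGA4 probe sets 213416_at and 243366_s_at were higher by 0.46 and 0.29 in signal. ITGAV was higher by 0.26 (adjusted p = 0.0333), but missed the threshold under quantile normalization (adjusted p = 0.0523), without the intensity trend (0.0689) and in 3 of 4 fits with an array left out, with 0.15 without the scrambled array of experiment 3. With 1 array left out, the call was also lost for FN1 216442_x_at without the scrambled array of experiment 1 (adjusted p = 0.197) or the siRNA array of experiment 3 (0.17), and for ITGA4 213416_at without the siRNA array of experiment 1 (0.0807). ITGB1 was higher on 211945_s_at by 0.34 ± 0.05 (SE, adjusted p = 0.00157), missed the test on 1553678_a_at (-0.09, adjusted p = 0.464) and was lower on 1553530_a_at, with a difference of -0.39 ± 0.08 (SE, adjusted p = 0.00829). The 211945_s_at call was lost without either array of experiment 1 (adjusted p = 0.0565 and 0.087). Probe sets of 1 gene thus pointed in opposite directions between these experiments. CD47 on 226016_at was higher by 0.24 (adjusted p = 0.0439). ITGA5 (-0.01) and the 3 TLN1 probe sets (-0.18 to -0.10) did not pass.

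In all, 8 of the 39 probe sets passed as higher in experiment 3 and 5 as lower, against 14.7% and 11.9% of all probe sets. Among the 5 lower were the dim THBS1 239336_at (-0.28, limma, adjusted p = 0.0404) and the dim ITGB1 216178_x_at (-0.36, adjusted p = 0.0168). The replicates of this test are the siRNA and scrambled array of an experiment, so it compares 2 experiments and not 2 conditions. The gaps between 3′ and 5′ control probe sets given above moved with experiment 3 as well, and their part in these differences was not tested.

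**Figure D5:**
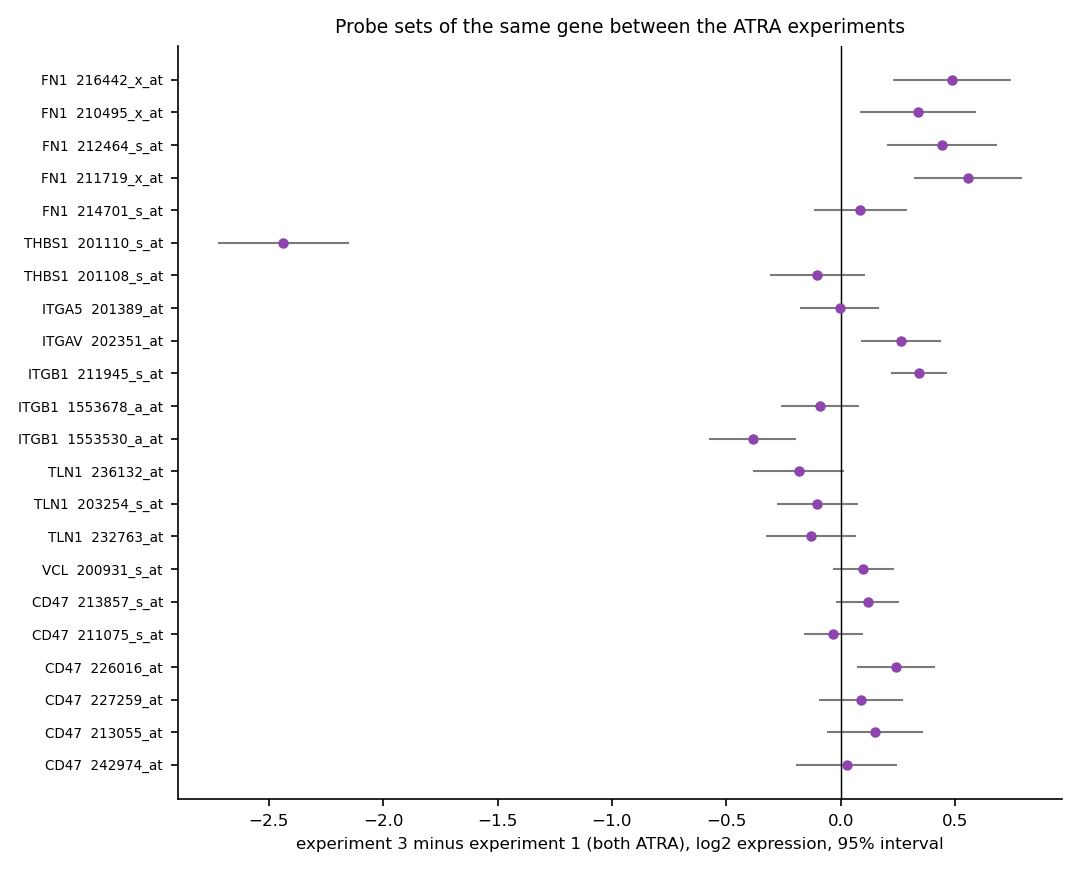
Difference in log2 expression between experiment 3 and experiment 1, both under ATRA, for the 22 bright probe sets, with 95% intervals from limma. THBS1 201110_s_at lies at -2.44, and ITGB1 probe sets lie on both sides of 0 (0.34 and -0.39).

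Other genes of matrix adhesion were described from lists, each gene by its probe set with the highest mean. None of the measured genes of any list passed in ATRA against DMSO on experiment means. Of 21 other integrin chains, 2 lay above and 5 below with all ATRA arrays, against 13.5% and 13.2% of all genes, and their median difference was -0.08, against -0.01 over all genes. Those with the smallest p were the dim laminin receptor chain ITGA6 (0.17), the dim collagen receptor chain ITGA2 (-0.14) and ITGA8 (-0.19). Of 30 other adhesion plaque proteins, 3 lay above and 9 below (10% and 30%), with a median of -0.04. The rule named the dim TGFB1I1, a paxillin relative (-0.16), APBB1IP, which recruits talin to the membrane (-0.22), and ILK, the integrin-linked kinase (-0.40 ± 0.30 SE). ILK had 8.63 and 8.66 in experiment 1 and 8.35 and 8.22 in experiment 3, against 8.93 and 8.79 under DMSO, without overlap.

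Of 28 other matrix ligands, 2 lay above and 3 below, with a median of 0.00. Among them COL4A2, a basement membrane collagen chain, stood at 0.35 ± 0.23 (SE), the laminin chain gene LAMA4 at -0.21 and the dim LAMA1 at -0.14. Of 12 other receptors or partners of matrix proteins or CD47, 1 lay above and 2 below (median -0.05). The named ones, SIRPG, the syndecan gene SDC2 and CD36, a thrombospondin receptor, were all dim. Between siRNA and scrambled RNA, 11 of the 21 integrin chains and 16 of the 30 plaque proteins were higher. So were 9 of the 28 matrix ligands and 8 of the 12 receptors or partners, as were 10464 of all 19775 genes. Their medians in that order were 0.01, 0.01, -0.03 and 0.02, against 0.01 over all genes, and none of them passed with or without the experiment as a block.

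Markers of other cell types were bright in part. Of the 10 fibroblast and stromal markers 5 were dim, among them COL1A2 (5.72) and COL3A1 (5.68). COL1A1 was bright (8.41), on a probe set with x in its suffix. Their summed signal ran from 823 to 895 with the siRNA and from 822 to 885 with scrambled RNA, with 6 higher and 4 lower. It ran from 822 to 847 under ATRA and from 885 to 895 under DMSO. Summed platelet and megakaryocyte markers (9 measured, 4 dim) ran from 707 to 722 with the siRNA and from 682 to 737 with scrambled RNA, and from 682 to 737 under ATRA and from 713 to 722 under DMSO. Endothelial markers (8 measured, 4 dim) ran from 477 to 511 with the siRNA and from 470 to 502 with scrambled RNA, and from 470 to 490 under ATRA and from 502 to 511 under DMSO. Monocyte and macrophage markers (9 measured, 7 dim) ran from 1120 to 1290 with the siRNA and from 1090 to 1170 with scrambled RNA, and from 1160 to 1290 under ATRA and from 1090 to 1120 under DMSO. The monocyte sum was mostly LYZ, the lysozyme gene, with a mean of 9.73 and a difference of 0.18 between ATRA and DMSO. The genes named by the rule, CD14 (-0.24), MNDA (-0.16) and S100A9 (0.16), were all dim. Fibroblast, endothelial and monocyte sums did not overlap between ATRA and DMSO, while platelet sums overlapped. The erythroid sums overlapped too, at 15500 to 18800 under ATRA and 16300 to 16500 under DMSO. Of all single genes, 13.5% had every ATRA array above both DMSO arrays and 13.2% below, and nothing is read from these sums. All arrays are of the K562 line, and the source of these marker signals was not tested.

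The genes whose pattern over the 6 arrays was most like that of FN1 216442_x_at were found by Euclidean distance after each probe set's mean was subtracted, among 9880 genes outside the list. They were SLC16A9, a monocarboxylate transporter relative (0.36 log2 units), FJX1, a relative of fly four-jointed (0.53), the immediate early factor FOS (0.55), the transcription factor SOX6 (0.62) and the adhesion molecule AMIGO2 (0.63). SLC16A9 had 8.78, 8.49 and 9.34 with the siRNA, against 8.20, 8.08 and 8.65 with scrambled RNA. FJX1 had 7.70, 7.55 and 8.21, against 7.18, 7.47 and 7.89, and its difference under DMSO was small (0.08). Of the listed genes, the probe sets nearest to FN1 outside FN1 itself were 2 dim ones of ITGA4 (0.74 and 0.77), and 201110_s_at of THBS1 was the furthest of all 39 (3.61).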

How the data were processed

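Total RNA of K562 cells was labelled and measured on Affymetrix HG-U133 Plus 2.0 arrays, 1 array per sample. Per the series' design text, the authors used BRB-ArrayTools to turn the scans into the deposited log2 values with RMA. Its settings are not stated there. Of 54675 probe sets, 62 controls were left out. The platform annotation gave 41091 of the others 1 gene, 1801 several and 11721 none, and the 9 genes were found in RefSeq by gene identifier. Of the probe sets, 34% carry an identical value on at least 2 arrays, 14 of the 39 listed here among them.

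R 4.3.3 with limma 3.58.1 gave all tests (lmFit, then trended eBayes) over all 54613 probe sets, with Benjamini-Hochberg adjustment and a threshold of 0.05. Some fits were also run on simulated data. These were the siRNA fits with and without the block, ATRA on experiment means, the fit of 4 groups, and experiment 3 against experiment 1. The other fits were not simulated. siRNA was compared with scrambled RNA with treatment as a covariate (3 residual degrees of freedom), ATRA with DMSO on experiment means (1), and the siRNA effects with each other in a fit of 4 groups (2), where each lone DMSO array is assumed to vary like the others. The experiment numbers pair the arrays: the labels mark independent experiments, and deviations from group means correlated at 0.703, 0.772 and 0.879 within experiments 1, 2 and 3. Arrays of different experiments gave 0.530 and 0.594 for 1 paired with 2, and -0.785 to -0.693 where one was from experiment 3. The deviations within a group cancel out. Negative values with experiment 3 therefore follow once experiments 1 and 2 are alike, and nothing is read from them.

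The genes, lists and tests were chosen with earlier results of these data known. All probe sets of the 9 genes are named. Of the other lists up to 3 genes by smallest p for ATRA are named, and the 5 genes nearest to FN1 in pattern. Alternatives were 1 probe set a gene, bright probe sets only, a further quantile normalization, no intensity trend, the experiment as a block, and leaving out experiments or arrays. The small number of arrays limits precision.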

Additional observations from a re-analysis of the deposited data

How the results depend on the processing

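For siRNA against scrambled RNA, 0 probe sets passed in the planned fit, 1 with the experiment as a replicate block, and 0 to 1 when an experiment was left out. For ATRA against DMSO, 0 passed on experiment means, 2 with the experiment as a random block and 1 with all arrays and no block. Leaving out experiment 3 or 1, with arrays of an experiment as replicates, gave 97 and 13872. Experiment 3 against experiment 1 gave 14503 calls, 6465 with 1 probe set a gene (19775 features), and 7849 to 12373 when an array was left out. The siRNA effect under ATRA against under DMSO gave 0 in every fit with a test, the replicate block included. Taken over the probe set with the highest mean of each gene, FN1 in ATRA against DMSO was -0.018 without experiment 3 and 0.47 without experiment 1. Without experiment 1, the difference was -2.82 for THBS1, 0.55 for ITGA4, 0.56 for ITGAV and 0.40 for ITGB1. Each of these fits sets 1 ATRA experiment against 1 DMSO experiment, so treatment and experiment cannot be told apart. ITGA5 turned to -0.011 under quantile normalization, and between experiments 3 and 1 it ran from -0.054 to 0.043 when an array was left out. In that comparison the FN1, ITGA4, ITGAV and ITGB1 calls were each lost in at least 1 fit with an array left out, and ITGAV also with quantile normalization (adjusted p = 0.0523) and without the trend (0.0689). The cause of these changes was not tested. The counts without experiment 3 were chosen after seeing the data: 19 probe sets were higher and 6 lower with the siRNA in both remaining experiments, where 23.6% and 20.3% of all probe sets were. The difference of siRNA effects has no test with an ATRA experiment left out. No fit of ATRA against DMSO with the experiment as a fixed block exists, because treatment varies only between experiments.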
